A study of Mus musculus with 12 samples.

Results

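The 10 genes described here are Tlr1, Tlr2, Tlr3, Tlr4, Tlr6, Tlr7, Tlr8, Tlr9 and Tlr13, which encode Toll-like receptors, and Cd14, which encodes a co-receptor for bacterial lipopolysaccharide. They were chosen by name, with earlier results of these data known, and are not the whole family. Tlr5, which fell in WAT (log2 fold change -1.99), and Tlr11 and Tlr12, which were not called there, are described with the other receptors and cofactors. All 10 genes have a row among the 26639 features counted in tissue and the 22851 counted in culture. Messenger RNA of white adipose tissue (WAT) and of cultured adipocytes was sequenced from wild-type (WT) mice and from mice with an adipocyte-directed deletion of Xap5, a nuclear protein encoded by Fam50a. In the conditional knockout (cKO) the adiponectin promoter drove Cre, so other cells of the tissue were not the target of the deletion. WAT was collected at postnatal day 42. The cultures began as pre-adipocytes from the subcutaneous white fat of WT or cko newborns, which were induced with insulin, dexamethasone and IBMX, kept on insulin and collected on day 8, and their deleted group is labelled KO. Each of the 4 groups held 3 libraries. The labels do not say whether these were separate animals or cultures, nor whether WT animals carried Cre, so each p-value reflects the spread among these samples alone, and part of it may be technical.

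Toll-like receptors are membrane proteins of innate immunity that bind molecules of microbes and of damaged cells. Some sit at the cell surface and bind lipids, lipoproteins or lipopolysaccharide, and others sit in endosomes and bind nucleic acids, and most signal through the adaptor Myd88 to NF-kappaB and interferon regulatory factors. In fat, macrophages are a main site of their expression, while adipocytes and their precursors are known for Tlr4 and Tlr2.

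Libraries held 28844370 to 33997204 counts in WAT and 10863158 to 21773610 in culture. Fam50a, the targeted gene, read 32.5 to 36.5 CPM, a count scaled to the size of its library, in WAT WT and 16.8 to 28.9 in WAT cKO, a log2 fold change of -0.60 (SE 0.20, adjusted p = 0.0395, edgeR quasi-likelihood test). In culture it read 45.2 to 57.9 CPM in WT and 41.1 to 46.2 in KO and was not called (-0.26), so that group is called KO by its label alone. The 9 adipocyte markers summed to 55292 to 59019 CPM in WAT WT, 7231 to 18158 in WAT cKO, 17335 to 18642 in culture WT and 23540 to 28080 in culture KO. The 13 macrophage markers were read in the cultures labelled adipocyte as well, at 4084 to 4484 CPM in WT and 2786 to 3298 in KO, against 613 to 927 in WAT WT and 2684 to 5551 in WAT cKO. Among the libraries of WAT cKO, replicate 2 stood apart at the low end for most of the 10 genes. Its level was 0.36 to 0.65 of the mean of replicates 1 and 3 for 8 of them, 0.80 for Tlr9 and 1.01 for Tlr3.

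In WAT, 9 of the 10 genes rose in cKO and Cd14 was not called, with a median log2 fold change of 2.51 over the 10 against 0.12 over all 16293 genes tested. Of all genes tested, 28.2% were called higher in WAT cKO, 24.2% lower and 52.4% in either direction at an adjusted p under 0.05. The rise ran from 2.14-fold for Tlr3 to 45.3-fold for Tlr13. The 9 were also called when cKO replicate 2 was left out. The groups did not overlap for 9 genes, as for 64.4% of all genes tested, 35.1% with cKO on the higher side and 29.3% with cKO on the lower. In culture Tlr2 fell and the other 9 were not called.

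**Figure D1:**
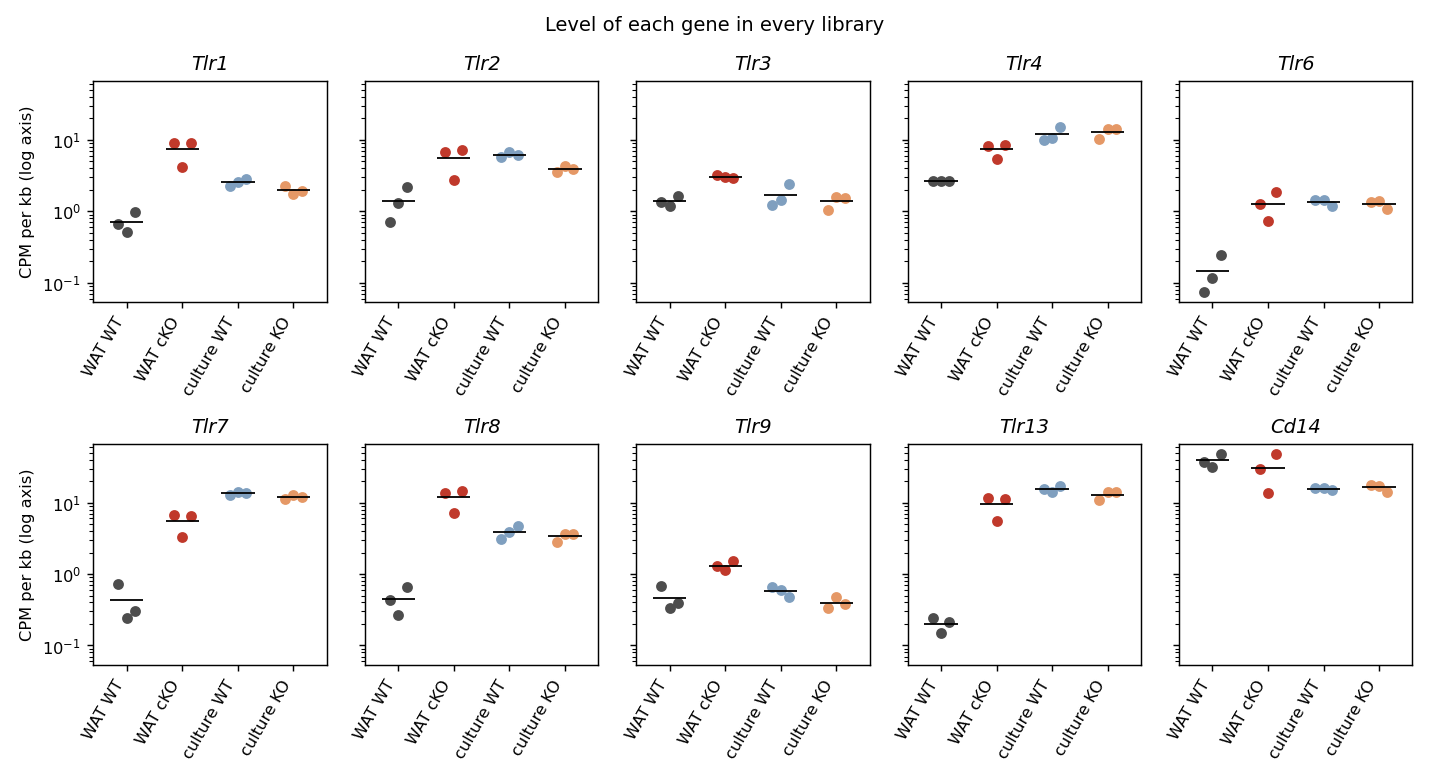
Level of each gene in CPM per kb of its longest transcript (log axis) in the 12 libraries, 1 panel per gene, with points for libraries and a line at the group mean. In WAT, the 3 cKO libraries lie above the 3 WT libraries in every panel but that of Cd14.

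The endosomal receptors of single-stranded and ribosomal RNA had the highest folds. Tlr13, which in the mouse binds bacterial ribosomal RNA, read 22, 14 and 20 counts in WAT WT and 1863, 862 and 1861 in WAT cKO for replicates 1 to 3, or 0.958, 0.584 and 0.827 CPM against 44.4, 21.2 and 42.2 CPM. All cKO libraries were far above all WT libraries, and replicate 2 was the lowest in both groups. The log2 fold change was 5.50 (SE 0.38, adjusted p = 0.000413).

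Tlr8, whose human counterpart binds single-stranded RNA, read 1.44, 0.876 and 2.19 CPM in WT and 44.1, 23.0 and 47.3 CPM in cKO. Again the groups were far apart and cKO replicate 2 was the lowest of its group. The log2 fold change was 4.66 (SE 0.42, adjusted p = 0.000576), or 25.3-fold.

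Tlr7, a receptor of single-stranded RNA, read 2.74, 0.918 and 1.16 CPM in WT and 24.7, 12.1 and 24.1 CPM in cKO. WT replicate 1 was the highest of its group and still below every cKO library. The log2 fold change was 3.66 (SE 0.49, adjusted p = 0.00137), or 12.6-fold. Tlr7 and Tlr8 are neighbours on the X chromosome, 39.1 kb apart, at positions 167303380 to 167330574 and 167241123 to 167264329 of GRCm38.p6, and Tlr13 lies on the same chromosome at 106143275 to 106160493. Fam50a is X-linked too, and the Y-linked genes measured were read in all 4 groups, at 32.2 to 54.3 summed CPM in WAT WT and 72.9 to 81.7 in WAT cKO. The labels do not give the sex of the animals, and the part of sex in the X-linked values was not tested.

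Tlr9 and Tlr3, the endosomal receptors of DNA rich in unmethylated CpG and of double-stranded RNA, rose less. Tlr9 read 2.27, 1.13 and 1.32 CPM in WT and 4.19, 3.69 and 4.98 CPM in cKO, with a log2 fold change of 1.45 (SE 0.36, adjusted p = 0.0131). With 1 library left out, the adjusted p of Tlr9 by edgeR reached 0.0495, just under the threshold. Tlr3 read 5.66, 5.01 and 6.94 CPM in WT and 13.1, 12.7 and 11.96 CPM in cKO, with a log2 fold change of 1.10 (SE 0.19, adjusted p = 0.00348). Neither gene overlapped between the groups, and for Tlr3 alone among the 9 receptors cKO replicate 2 was not below the mean of the other cKO libraries. After removal of a per-library trend over transcript length and GC content, the log2 fold change of Tlr3 was 0.38 and was not called (adjusted p = 0.116).

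Among surface receptors, Tlr1 and Tlr6 are close paralogs that each pair with Tlr2 to bind bacterial lipopeptides. Tlr1 read 1.96, 1.50 and 2.85 CPM in WT and 25.3, 11.97 and 26.0 CPM in cKO, and Tlr6 read 0.261, 0.417 and 0.868 against 4.36, 2.53 and 6.39 CPM. Every cKO library exceeded every WT library for both genes, and cKO replicate 2 was the lowest. The log2 fold changes were 3.32 (SE 0.39, adjusted p = 0.000904) for Tlr1 and 3.09 (SE 0.57, adjusted p = 0.00407) for Tlr6. Tlr6 rested on 6, 10 and 21 counts in WT, the fewest of the 10 genes. Both lie on the minus strand of chromosome 5, 19.5 kb apart, and the Tlr6 span overlaps Fam114a1 and Mir574, so without a stated strand setting its counts may include reads of these genes, and reads may be shared between the paralogs.

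Tlr2 itself read 2.05, 3.84 and 6.49 CPM in WT and 19.0, 7.76 and 20.7 CPM in cKO. The groups did not overlap, although cKO replicate 2 came close to WT replicate 3. The log2 fold change was 1.94 (SE 0.51, adjusted p = 0.0159), and without WT replicate 2 it was 1.88 and no longer called (adjusted p = 0.0657).

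Tlr4, the lipopolysaccharide receptor, read 10.6, 10.4 and 10.6 CPM in WT and 31.5, 20.9 and 32.2 CPM in cKO. The WT libraries were nearly equal, and each cKO library was above them. The log2 fold change was 1.42 (SE 0.19, adjusted p = 0.00141), and 0.69 (adjusted p = 0.0244) after the length and GC correction.

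Cd14, which hands lipopolysaccharide to Tlr4 and Ly96, read 59.1, 50.6 and 76.8 CPM in WT and 44.9, 21.2 and 73.5 CPM in cKO. The groups overlapped, with cKO replicate 2 the lowest and cKO replicate 3 inside the WT range. Its log2 fold change was -0.42 (95% interval -1.38 to 0.54, adjusted p = 0.416), and its sign turned to 0.28 when counts were scaled by library size only and to 0.01 after the length and GC correction. Without the correction the interval reaches from a fall to a small rise and lies below the fold change of each of the 9 receptors. After the correction the SE of Cd14 was 0.42, with Tlr3 at 0.38 and Tlr4 at 0.69, so these values lay closer together.

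**Figure D2:**
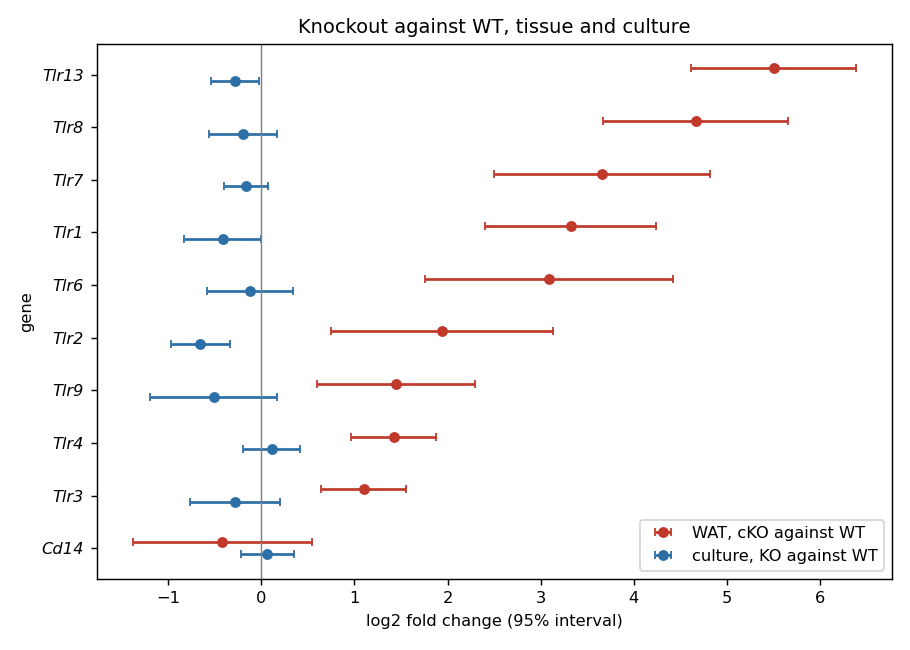
Log2 fold change of each gene with its 95% interval, cKO against WT in WAT (red) and KO against WT in culture (blue). The WAT values of the 9 receptors run from 1.10 to 5.50, and the culture values of the 10 genes from -0.65 to 0.11.

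In culture the 10 genes had a median log2 fold change of -0.23 against -0.02 over all 12587 genes tested, and Tlr2 was the 1 gene called. Of all genes tested, 10.6% were called lower and 8.94% higher, or 19.5% in all. Tlr2 read 15.5, 18.6 and 16.5 CPM in culture WT and 9.66, 11.7 and 10.6 CPM in culture KO. Each KO library was below each WT library. Tlr2 fell by 0.65 on the log2 scale (SE 0.16, adjusted p = 0.00544), and it was not called without WT replicate 2 (-0.56, adjusted p = 0.0575) or in 1 fit over all 4 groups (adjusted p = 0.361).

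The culture groups did not overlap for 5 of the 10 genes, Tlr1, Tlr2, Tlr7, Tlr9 and Tlr13, with KO on the lower side in each. Of all genes tested, the groups did not overlap for 36.8%, with KO lower for 18.8% and higher for 18.0%. Tlr13 read 56.8, 51.2 and 62.3 CPM in WT and 39.0, 50.4 and 50.3 CPM in KO, so KO replicates 2 and 3 lay just under WT replicate 2 (log2 fold change -0.28, 95% interval -0.53 to -0.02, adjusted p = 0.113). Tlr7 read 44.3, 49.7 and 47.4 CPM in WT and 39.6, 44.2 and 42.0 CPM in KO (-0.17, 95% interval -0.40 to 0.07, adjusted p = 0.328). These groups nearly touched.

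Tlr1 read 6.17, 7.06 and 7.76 CPM in WT and 6.10, 4.69 and 5.16 CPM in KO (-0.41, 95% interval -0.83 to -0.0017, adjusted p = 0.146). Tlr9 read 2.03, 1.85 and 1.50 CPM in WT and 1.03, 1.49 and 1.17 CPM in KO, from 11 to 32 counts per library (-0.51, 95% interval -1.19 to 0.17, adjusted p = 0.290). Both gaps between the groups were narrow.

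The other 5 overlapped between the culture groups. Tlr4 read 36.5, 38.7 and 55.8 CPM in WT and 37.2, 51.7 and 51.9 CPM in KO, a log2 fold change of 0.11 (adjusted p = 0.642) that was -0.09 after the length and GC correction. Tlr8 ranged over 9.46 to 14.4 CPM in WT and 8.72 to 11.2 in KO, Tlr6 over 3.96 to 4.81 and 3.56 to 4.51, and Cd14 over 21.8 to 23.6 and 20.8 to 25.8. Tlr8 had a log2 fold change of -0.19 (95% interval -0.56 to 0.17), Tlr6 of -0.12 (-0.58 to 0.34) and Cd14 of 0.07 (-0.22 to 0.35). Tlr3 had -0.28 (-0.76 to 0.21), with the highest level of either group in WT replicate 3 at 9.58 CPM, and without that library its value was 0.08. These intervals hold changes of either sign.

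The difference between cKO against WT in tissue and KO against WT, as labelled, in culture was tested directly over all 12 libraries and 14463 genes. It was called higher for 9 of the 10 genes at an adjusted p under 0.05. Of all genes tested, 27.7% were called higher, 21.1% lower and 48.8% in either direction. The median difference was 2.93 on the log2 scale over the 10 genes and 0.22 over all genes. It was 5.82 (SE 0.39) for Tlr13, 4.90 (SE 0.45) for Tlr8 and 3.86 (SE 0.46) for Tlr7, and 1.35 (SE 0.29, adjusted p = 0.00201) for Tlr4, the smallest of the 9. For Cd14 it was -0.45 (SE 0.45, adjusted p = 0.436), but 0.21 with library size only and 0.05 after the length and GC correction, and without WAT cKO replicate 3 it was -0.92 and passed (adjusted p = 0.0445).

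Macrophage markers rose with the receptors in WAT. Of the 13 markers, 12 rose in WAT cKO, with a median log2 fold change of 2.69, and 6 fell in culture KO, with a median of -0.36, or 1 in the fit over all 4 groups. In bulk tissue fewer cells of a type and less RNA per cell cannot be told apart. In cKO replicate 2 the markers stood at 0.42 to 0.79 of the mean of the other cKO libraries, except Mertk at 1.07. Adgre1, the macrophage marker F4/80, had a log2 fold change of 3.53 in WAT, Csf1r of 2.23 and Mrc1 of 2.72. The 1 marker that did not rise in WAT was Cd163, at 7.28 ± 3.56 CPM in WT and 6.55 ± 0.857 in cKO. In culture Cd163 read 148 ± 14.8 CPM in WT and 45.4 ± 5.03 in KO. The part of macrophage number in the receptor values was not tested.

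Set against the mean log2 CPM of these 13 markers, 5 receptors were higher in WAT cKO and the other 4 and Cd14 were lower. The log2 ratio to the markers was 2.76 higher in cKO for Tlr13, 2.01 for Tlr8, 1.07 for Tlr7, 0.61 for Tlr1 and 0.46 for Tlr6. It was -0.71 for Tlr2, -1.18 for Tlr9, -1.28 for Tlr4, -1.56 for Tlr3 and -3.24 for Cd14. The exact two-sided permutation test gave p = 0.1, the smallest that 3 against 3 libraries allow, for every gene but Tlr6 (p = 0.4) and Tlr2 (p = 0.3), so none can pass 0.05. The signs were the same with Adgre1, Csf1r and Fcgr1 as the only markers. With these markers the permutation test gave p = 0.4 for Tlr7 (0.83) and p = 0.8 for Tlr6 (0.22). The p of the other genes was unchanged.

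**Figure D3:**
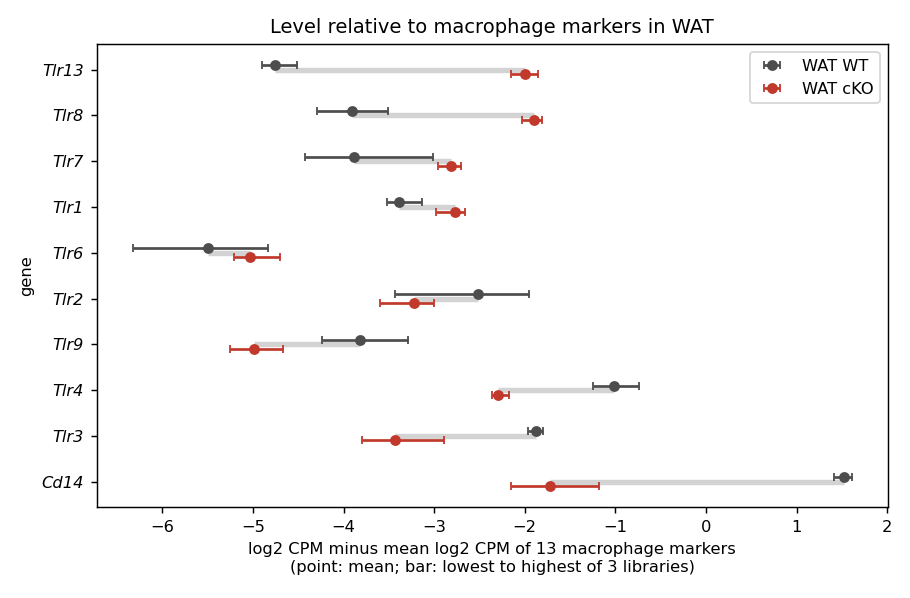
Log2 CPM of each gene minus the mean log2 CPM of 13 macrophage markers in WAT, with a point for the mean and a bar from the lowest to the highest of 3 libraries, for WT (grey) and cKO (red). Tlr13 lies 2.76 further right in cKO and Cd14 lies 3.24 further left, with the other genes between.

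Markers of other cells were read in WAT as well. Dendritic cell markers summed to 34.2 to 47.0 CPM in WT and 75.6 to 149 in cKO, with 4 of 7 called higher, or 2 without cKO replicate 1. Most of that sum in cKO was Itgax, which macrophages also express, at 9.40 ± 5.89 CPM in WT and 77.1 ± 33.6 in cKO, while Zbtb46 read 23.0 ± 3.97 and 21.7 ± 1.56 and was not called. Mast cell markers summed to 29.9 to 34.7 CPM in WT and 40.9 to 127 in cKO, with 4 of 5 tested called higher. Kit made up most of the sum in WT, at 27.4 ± 2.62 CPM there and 24.7 ± 25.3 in cKO. Cma1 went from 1.43 to 16.8 CPM, Mcpt4 from 1.52 to 16.9, Tpsb2 from 1.13 to 13.9 and Cpa3 from 0.608 to 5.60. Neutrophil markers summed to 3.66 to 5.04 CPM in WT, with Ly6g and Mpo at 0, and 11.1 to 13.8 in cKO. Csf3r made up most of the sum in cKO, at 1.34 ± 0.736 CPM in WT and 10.3 ± 2.1 in cKO. Of the other neutrophil markers, S100a8 was called higher at 1.00 CPM in cKO, Elane read 1.82 in WT and 0.421 in cKO and was not called, and Ly6g, Mpo, Retnlg and Cxcr2 had means of at most 0.0932 CPM in cKO. B cell markers summed to 3.43 to 4.46 CPM in WT and 4.25 to 7.97 in cKO, and T cell markers to 25.3 to 45.5 and 21.2 to 40.7 CPM. Of 6 endothelial markers 5 fell, and of 7 progenitor or fibroblast markers 4 rose, while with library size only the calls were 1 and 7. Their part in the receptor values was not tested. In culture Ms4a1 and Pax5 of B cells, Cd3d, Cd3g and Cd8a of T cells and Flt3, Xcr1 and Cd209a of dendritic cells were at 0 in both groups.

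Levels of different genes were set side by side in CPM per kb of the longest transcript, without the length and GC correction. Which transcript was in use was not measured, so the shares are a description. The 9 receptors together stood at 7.88 ± 1.29 CPM per kb (SD, n = 3) in WAT WT, 52.9 ± 17.0 in WAT cKO, 57.4 ± 5.66 in culture WT and 50.3 ± 5.60 in culture KO. In WAT WT, Tlr4 made up 34.5% ± 5.27 of this sum, Tlr2 17.6% and Tlr3 17.5%. In WAT cKO, Tlr8 led with 22.3% ± 0.877, followed by Tlr13 with 17.7% and Tlr4 with 14.3%. In both cultures Tlr13, Tlr7 and Tlr4 led, at 27.3%, 23.6% and 20.6% in WT and 25.6%, 24.1% and 25.6% in KO. Tlr8, first in WAT cKO, held 6.72% in culture WT and 6.73% in culture KO.

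**Figure D4:**
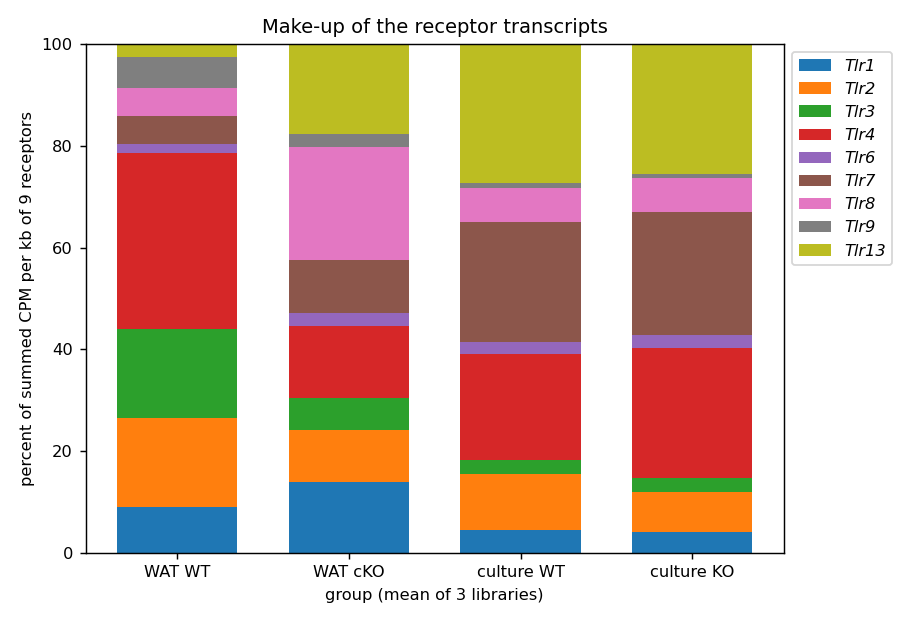
Share of each receptor in the summed CPM per kb of the 9 receptors, as the mean of 3 libraries in each of 4 groups. Tlr4 takes 34.5% in WAT WT and 14.3% in WAT cKO, while Tlr8 takes 5.58% and 22.3%.

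Ordered by level, WAT WT was the lowest of the 4 groups on the mean for 8 of the 10 genes. Of these, Tlr3 in WAT WT overlapped with culture KO, at 1.38 ± 0.226 against 1.39 ± 0.296 CPM per kb. For Tlr1, Tlr3, Tlr8 and Tlr9, WAT cKO was the highest group and did not overlap with the next, as for Tlr8 at 11.9 ± 4.14 CPM per kb against 3.88 ± 0.805 in culture WT. For Tlr4, Tlr7 and Tlr13 both cultures stood above WAT cKO on the mean, and of these Tlr13 in culture KO overlapped with WAT cKO. For Tlr2 and Tlr6 the cultures and WAT cKO overlapped. Cd14 ran the other way, with 39.2 ± 8.31 CPM per kb in WAT WT, 30.2 ± 17.0 in WAT cKO, 16.4 ± 1.88 in culture KO and 15.5 ± 0.644 in culture WT, and its neighbours in that order overlapped. WAT and culture counts come from separate tables with different feature lists, so these orders are a description.

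The rest of the pathway was read from lists of co-receptors, adaptors, inhibitors, targets and ligands. Genes in this account beyond those with the smallest p were named after their values were seen. The counts of each list stand beside 28.2% of all genes called higher and 24.2% lower in WAT, or 52.4% in all, and 8.94% higher and 10.6% lower in culture, or 19.5% in all. The counts of inhibitors in both settings, of adaptors in culture and of ligands in WAT lie near these shares, in all or by direction. In WAT the calls in all also lie near 52.4% for further receptors and cofactors (8 of 13), adaptors (14 of 23) and induced genes (9 of 15). Most of these calls were rises. No list was tested against all genes. Of 13 further receptors and cofactors in WAT, 6 rose and 2 fell, with a median of 0.84. Cd180, a B cell and macrophage relative of Tlr4, went from 1.60 ± 0.699 to 38.5 ± 18.0 CPM (log2 fold change 4.58, SE 0.51, adjusted p = 0.000788), Pik3ap1, an adaptor that links receptors to PI3-kinase, from 10.3 to 101 CPM (3.30), and Hsp90b1, the chaperone that folds the receptors, from 103 to 283 CPM (1.45). Unc93b1, which carries the nucleic acid receptors to endosomes, went from 83.1 ± 1.02 to 254 ± 79.0 CPM (1.61, adjusted p = 0.00182), and Ly96, the partner of Tlr4, from 2.87 to 5.72 CPM (0.99). Ly86, the partner of Cd180, also rose (2.56). Tlr11 (0.84) and Tlr12 (-0.81) were not called. The 2 that fell were Tlr5, the flagellin receptor, from 5.38 to 1.35 CPM (-1.99), and Cnpy3, a second chaperone of the receptors, from 100.3 to 60.9 CPM (-0.72). In culture 5 of 11 fell and 1 rose. The falls were in Cd180 (-0.41), Unc93b1 (-0.42), Slc15a4 (-0.45), Pik3ap1 (-0.45) and, with the smallest p, Lbp, the lipopolysaccharide-binding protein, at 88.4 ± 8.25 against 55.9 ± 7.41 CPM (-0.66, adjusted p = 0.000642). The rise was in Cd36, a scavenger receptor of adipocytes and macrophages (0.48). This list had 2 culture calls without WT replicate 1 and 1 without WT replicate 2.

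Of 23 adaptors, kinases and factors, 12 rose and 2 fell in WAT, with a median of 0.69. Irf5, a transcription factor of receptor signalling, went from 16.2 ± 3.80 to 108 ± 38.8 CPM (2.73), Ikbke, a kinase of interferon regulatory factors, from 8.35 to 39.1 CPM (2.23), and Tab2, an adaptor of the kinase Tak1, from 28.1 to 61.2 CPM (1.12). Ticam2, which joins Tlr4 to the interferon branch, rose by 2.61, and the 2 that fell were the kinase Irak1 (-0.71) and the factor Irf3 (-0.61). In culture 3 of 23 fell and the other 20 were not called. The falls were in Irf7 at -0.71, Rela, a subunit of NF-kappaB, at -0.44 and Ticam1, the adaptor of Tlr3, at -0.41. The culture count was 0 without WT replicate 2 and 1 without KO replicate 2. Of 11 inhibitors, 3 rose and 3 fell in WAT, with Atf3, a repressor that Toll-like receptor signals induce, at 4.43, Cyld, a deubiquitinase, at 1.01 and Irak3 at 0.47 on the higher side. Tnip1, which restrains NF-kappaB, was at -0.63, Nfkbia, which holds NF-kappaB in the cytoplasm, at -0.52 and Tollip at -0.48. With any 1 library left out, 5 of the inhibitors were called in WAT. In culture 2 of 10 fell, Atf3 at -0.66 and Zc3h12a, an RNase that destroys cytokine messages, at -0.52, and the count was 0 without WT replicate 2 and 4 without WT replicate 3.

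Among genes that receptor signals are known to induce, 8 of 15 tested rose in WAT and 1, Nos2, fell (-0.90), with a median of 1.57. With 1 library left out, 6 to 8 of these genes were called in place of 9, and the count was 6 without WT replicate 1, WT replicate 3 or cKO replicate 1. Il1rn, the antagonist of interleukin-1 receptors, went from 2.34 ± 0.628 to 89.1 ± 37.4 CPM (5.25, adjusted p = 0.000486), Nfkbiz from 3.19 to 10.5 CPM (1.72), and Cxcl2, a neutrophil chemokine, from 0.252 to 2.70 CPM (3.40). In culture 6 of 12 tested fell and the other 6 were not called. The smallest p belonged to the chemokine Ccl3 at 32.6 ± 6.05 against 13.1 ± 1.22 CPM (-1.32) and the acute-phase gene Saa3 at 46.7 ± 7.33 against 21.5 ± 6.82 CPM (-1.14). Of 8 genes for matrix and other proteins reported as endogenous ligands, 4 rose in WAT, Vcan at 2.24, Fn1 at 2.35, Bgn at 0.80 and S100a8 at 1.34. In culture 3 of 6 fell, Fn1 at -0.96, Bgn at -0.63 and Tnc at -0.46, and 2 rose, Hmgb1 at 0.53 and Hspd1 at 0.55. In 1 fit over all 4 groups none of these 5 lists had a culture call by edgeR. With library size as the only scaling, the lists gave 9 rises and 1 fall, 20 and 0, 6 and 0, 13 and 0, and 6 and 0 in WAT, in the order above.

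Over the 12 libraries, the genes whose log2 CPM was most like each member had a Pearson r of 0.93 to 1.00, given as a description, since the points share 4 groups and 2 tables. They were Adcy7 and Clec4a3 for Tlr1 (both 0.99), Gdpd1 and Tmem144 for Tlr2 (both 0.97), Ncoa7 (0.96) and Tcf4 (0.95) for Tlr3, and Tpm4 for Tlr4 (0.99). For Tlr6 and Tlr9 they were Cdca3 and Tec (both 0.99) and Zc3hav1l and Arhgap19 (both 0.96). For the X-linked Tlr7, Tlr8 and Tlr13 they were Hc (1.00) and Gpr162 (0.99), Nceh1 and Itgam (both 0.99), and Soat1 and Arhgap11a (both 1.00). For Cd14 they were Zscan2 (0.95) and Trim65 (0.93). No gene was named for more than 1 member.

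The start regions of the receptors that rose together were read for short motifs of myeloid genes, in the 250 bases upstream of listed starts (GRCm38.p6). Not all of these starts are the end of the gene span. Both Tlr6 windows, the Tlr3 window and 1 of the Tlr1 windows lie inside it. The Tlr2 window, for most of its length, and a part of the other Tlr1 window lie inside it too. Of the 10 genes, 7 have an entry in the promoter table used. The longer PU.1 site GAGGAAGT was found on either strand for 1 of the 7, Tlr1, and the interferon response element, a pair of TTTC blocks with 2 bases between, for 1, Tlr6, against 2.79% and 3.46% of 27025 genes. The core PU box GAGGAA, which is part of the longer site and was added after that search, was found for 4 of the 7, Tlr1, Tlr8, Tlr9 and Tlr13, against 25.9% of genes. Of these windows 3 are shown 5′ to 3′ on the gene's strand, with the box in capitals, because they belong to the receptors with the largest changes and to one with a small change.
Tlr13, chrX:106143025-106143274, plus strand: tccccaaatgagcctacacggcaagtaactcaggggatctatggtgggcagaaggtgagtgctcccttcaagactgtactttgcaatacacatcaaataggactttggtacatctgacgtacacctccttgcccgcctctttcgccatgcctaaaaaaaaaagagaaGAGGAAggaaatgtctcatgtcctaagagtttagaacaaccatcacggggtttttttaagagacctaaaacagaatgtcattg
Tlr8, chrX:167264330-167264579, minus strand: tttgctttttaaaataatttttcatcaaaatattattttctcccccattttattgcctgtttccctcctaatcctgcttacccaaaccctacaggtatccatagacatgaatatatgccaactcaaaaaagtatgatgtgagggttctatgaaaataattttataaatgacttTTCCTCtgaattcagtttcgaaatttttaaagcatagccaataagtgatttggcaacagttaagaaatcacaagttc
Tlr9, chr9:106222348-106222597, plus strand: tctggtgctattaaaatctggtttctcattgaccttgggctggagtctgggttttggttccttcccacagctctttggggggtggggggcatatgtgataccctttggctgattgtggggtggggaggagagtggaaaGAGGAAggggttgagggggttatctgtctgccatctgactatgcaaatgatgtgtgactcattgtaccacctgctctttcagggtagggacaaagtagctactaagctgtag
A match describes these letters and is not a site of binding. The box stands on the gene's strand in Tlr13 and Tlr9 and on the opposite strand, read as TTCCTC, in Tlr8. The 4 genes with the box, Tlr13, Tlr8, Tlr1 and Tlr9, rose 45.3-fold, 25.3-fold, 10.0-fold and 2.73-fold in WAT. Of the 7 genes searched, those without it, Tlr6, Tlr2 and Tlr3, rose 8.51-fold, 3.83-fold and 2.14-fold. Whether the box goes with the size of the rise was not tested.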

How the data were processed

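Per the labels' protocols, RNA came from a TRIzol extraction and libraries from the MGIEasy mRNA kit. The values deposited by the authors are raw counts per gene, in 1 table for WAT and 1 for culture, with no normalization. HISAT2 2.1.0, cutadapt 1.11, FastQC 0.11.2 and the build GRCm38 are named in the submitters' processing notes without roles. Which counting tool, annotation and strand option were used is not given in the sources used here. Groups were taken from the sample titles, and all sample columns were used.

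Both comparisons were fitted across all genes, on 6 libraries each, by edgeR 4.0.16 (R 4.3.3, quasi-likelihood test, filterByExpr, minimum count 10, TMM), and the difference of effects as an interaction over 12 libraries. Adjusted p-values are Benjamini-Hochberg values over all genes tested, with a threshold of 0.05, and come from edgeR. SE is the log2 fold change over the root of F. Levels are TMM-scaled CPM, per kb on a scale of 12 libraries. Ratios to markers used a prior count of 0.5. The biological coefficient of variation was 0.319 for WAT and 0.114 for culture. No libraries of a group agreed within sampling noise, with a chi-square of 4.98 to 215 per degree of freedom.

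The members and lists were chosen with earlier results of these data known. The text names all 10 members, Fam50a, from each pathway list the 3 genes with the smallest p in WAT and the 2 in culture, and the 2 genes with the highest Pearson r to each member, leaving out unnamed loci, numbered copies and receptor segments. Adgre1, Csf1r, Mrc1, Cd163 and some pathway genes were added after their values were seen. Xist and 1 other gene under the rule are not reported here. The tests were tried on simulated counts. Alternatives were RLE size factors, library size only, no count filter, a replicate block, removal of a length and GC trend (values for 85.8% of genes in WAT and 98.0% in culture), DESeq2 1.42.0, limma voom 3.58.1, 1 fit over all 4 groups and each library left out.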

Additional observations from a re-analysis of the deposited data

Results flagged for a closer look

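The difference between cKO and WT in WAT was unlike that between the groups labelled KO and WT in culture for 9 genes, by the interaction test of edgeR. The targeted gene Fam50a was not called lower in culture (log2 fold change -0.26). The difference on the log2 scale was 5.82 for Tlr13, 4.90 for Tlr8, 3.86 for Tlr7, 3.76 for Tlr1, 3.23 for Tlr6, 2.63 for Tlr2, 2.01 for Tlr9, 1.42 for Tlr3 and 1.35 for Tlr4. Of all genes tested, 48.8% differed in either direction. Tissue and culture also differ in age, cell make-up and sequencing depth, and these cannot be told apart from the setting.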

How the results depend on the processing

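In WAT 8 or 9 of the 10 genes were called under each of the 14 alternatives, the exceptions being Tlr2 without WT replicate 2 and Tlr3 after the length and GC correction. The size of the rise in WAT moved with the scaling. Tlr13 rose 33.8-fold after the length and GC correction and 72.9-fold with library size only, against 45.3-fold. Tlr8 rose 16.6-fold and 40.8-fold against 25.3-fold, and Tlr3 1.30-fold and 3.43-fold against 2.14-fold. Tlr2 and Tlr9 had higher folds under both, 4.18 and 6.18 against 3.83, and 3.20 and 4.37 against 2.73. The difference between tissue and culture was called for 9 or 10 genes throughout. Scaling by library size only moved the median of all genes in WAT by 0.68 on the log2 scale and gave 8838 higher and 1427 lower calls against 4595 and 3947. In culture it gave 786 higher and 1765 lower against 1125 and 1334, and in the difference 7331 and 1198 against 4009 and 3052.

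In culture the counts varied more. The members called were 2 with the replicate block (Tlr13, adjusted p = 0.0340, beside Tlr2), 5 after the length and GC correction (Tlr1, Tlr2, Tlr7, Tlr8 and Tlr13), 0 in 1 fit over all 4 groups, and 0 to 1 with a replicate left out. All genes called in culture were 3824 with the replicate block, 146 in 1 fit over all 4 groups and 897 to 3380 with a replicate left out, against 2459. The same-numbered replicates correlated at -0.35, 0.02 and -0.23 in WAT and 0.22, 0.04 and 0.27 in culture. In culture every library but WT replicate 2 correlated best with its own number, and in WAT only WT replicate 2 did. With 3 libraries in each group, these values cannot settle whether the numbers pair the samples. Values that changed sign were Cd14 in WAT (0.28 with library size only, 0.0083 after the length and GC correction) and in the difference (0.21 and 0.052), Tlr3 in culture (-0.45 to 0.079 with a replicate left out, above 0 without WT replicate 3) and Tlr4 in culture after the correction (-0.094). The cause was not tested. Depth limits Tlr6 in WAT WT and Tlr9 in culture, with 6 to 21 and 11 to 32 counts per library.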
